A study of Arabidopsis thaliana with 2 samples.

Results

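A list of peaks from chromatin purified with tagged ERF115 was searched for the ERF115 gene (AT5G07310) and 3 close relatives. These relatives were ERF114 (AT5G61890), RAP2.6L or ERF113 (AT5G13330) and RAP2.6 or ERF108 (AT1G43160). These 4 genes were chosen by name, out of 27444 nuclear protein-coding genes, with earlier results of these data known. They are read here against 612 peaks. Where a gene had no peak of its own in the authors' annotation, the nearest peaks assigned to genes on either side of it were taken. ERF115-HBH cells carried 35S::ERF115-HBH, a fusion of ERF115 to a purification tag under the constitutive 35S promoter, in dark-grown PSB-D suspension cells of the Landsberg erecta ecotype. The mock was wild-type PSB-D cells without the fusion. Both cultures grew with the auxin NAA and the cytokinin kinetin. At 2 days after subculturing they were crosslinked for 10 minutes in 0.75% formaldehyde. Chromatin was then purified in tandem on nickel and streptavidin beads and the DNA was sequenced. Each group had 1 library, so no value has a replicate error and no difference between the groups was tested. The 35S promoter is active in most cells, so the fusion was not limited to the cells in which ERF115 is normally made, and a cell suspension holds no root quiescent centre.

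ERF115 is a transcription factor of the AP2/ERF family, whose members bind DNA through an AP2 domain and are known for binding GCC-box sequences. It is known for driving divisions of the normally quiescent centre cells of the root meristem and for regeneration after wounding, and the series title places its degradation under the APC/C with its activator CCS52A2. Its relatives of the same ERF subgroup are known from wounding, stress and regeneration. RAP2.6L is needed for tissue reunion in cut stems, RAP2.6 responds to abscisic acid, jasmonate and stress, and ERF114 is known for promoting the outgrowth of axillary buds. A peak at such a gene would be a region listed for chromatin purified with the tagged ERF115, near its own gene or near that of a relative.

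None of the 4 genes was the locus of a peak, while 2.06% of all nuclear protein-coding genes (564 of 27444) were. Beside ERF114 and RAP2.6L, however, the very next gene had a peak, so 2 of the 4 genes had a peak at an adjacent gene. Among all protein-coding genes 3.23% (886 of 27444) had no peak of their own but had one at an adjacent gene. These 2 cases were known when the genes were chosen, so the count describes them and is no test. Neighbours are counted in the order of all 37899 nuclear genes in the RefSeq gene table of assembly TAIR10.1, 1 step being the next gene on either side. The distance to the nearest gene with a peak was 1 step for ERF114, 1 for RAP2.6L, 33 for ERF115 and 151 for RAP2.6. Over all protein-coding genes the median was 25 steps, with quartiles of 9 and 55. ERF115 was farther from a peak than 58.6% of genes, near the middle of the range, and RAP2.6 farther than 94.2%.

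**Figure D1:**
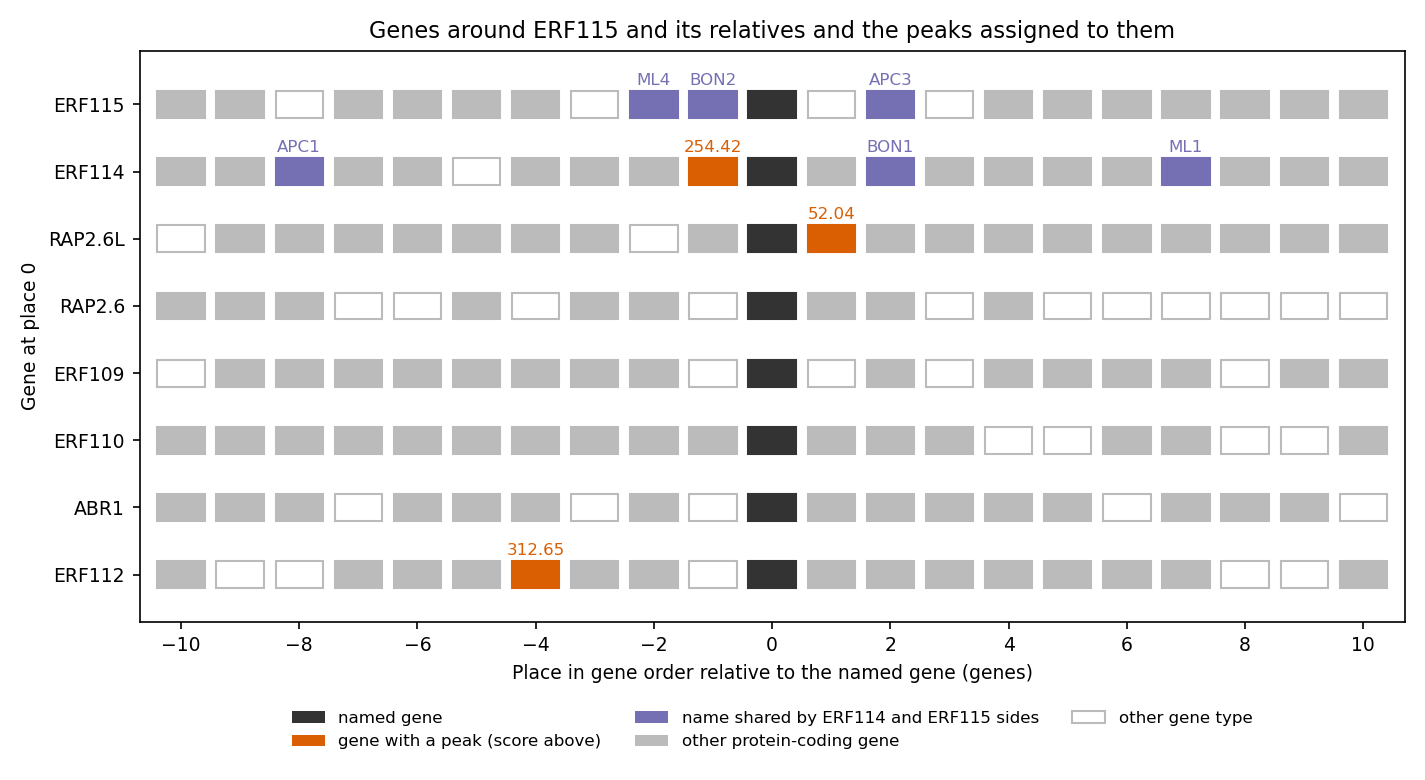
Gene order around the 8 genes of the ERF115 subgroup, 10 genes on either side; the horizontal axis is the place in the gene order and each box is 1 gene, filled where it encodes a protein or has a peak. Orange boxes are genes with a peak, with the peak score above: 254.42 beside ERF114, 52.04 beside RAP2.6L and 312.65 at 4 genes from ERF112. Purple boxes are gene names shared by the surroundings of ERF115 and ERF114.

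The peak beside ERF114 was among the strongest of the whole list. It lay at chromosome 5, 24850945 to 24852247 (TAIR10), was 1303 bp wide and was assigned to AT5G61880, also called PAM16L. Its score was 254.42, rank 18 of 612. The score is the value MACS writes for a peak, 10 times the negative log10 of its p-value, so a higher score means a smaller p-value. The lowest score of the list was 50.01, the median 78.9 and the highest 537.85. The authors labelled this peak 3' UTR, and it had the highest score of the 23 peaks with that label. The position the authors gave inside it, 24851592, lay 647 bp from the lower edge and 655 bp from the upper edge, close to the middle. ERF114 is the next gene on the higher-coordinate side, so the upper edge is the edge that faces it. Whether the peak reached ERF114 was not analysed here, because gene coordinates on the build of the peaks were not used.

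From the peak of AT5G61880, the nearest listed peak lay 100054 bp away on the lower side. The next on the higher side lay 317729 bp away. Over all peaks the median gap to the nearest peak was 37.4 kb. No other peak had its midpoint within 100 kb, against a median of 1 over all peaks. This was not particular to it. Among the other peaks flanking the 4 genes, those at TGA4, CLT3, AT5G13340 and AT1G39030 also had none, and those at WRKY26, GTR2 and AT1G44510 had 1 or 2. On the higher-coordinate side of ERF114 the nearest gene with a peak was 96 steps away, namely GTR2 (AT5G62680), a glucosinolate transporter. That peak scored 52.8, rank 563, and carried the label intergenic 5'. The pair of peaks that bracket ERF114 thus came from opposite ends of the score range.

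The peak beside RAP2.6L was weak and broad. It lay at chromosome 5, 4273499 to 4278245 (TAIR10), and was assigned to AT5G13340 with the label intergenic 3'. Its score of 52.04 ranked 575 of 612 and was 109th among the 117 peaks with that label, just above the minimum of the list. With peaks scoring at least 100, or with the 306 peaks of highest score, RAP2.6L had no adjacent peak and the count of 4 genes fell from 2 to 1. Of all protein-coding genes 1.08% and 1.68% had an adjacent peak under these thresholds, and 0.656% and 1.04% a peak of their own. The count stayed at 2 in the order of protein-coding genes alone, where 3.87% of genes had an adjacent peak. It also stayed at 2 with peaks up to 2 genes away, where 8.34% of genes had a peak of their own or within that reach. Its width of 4747 bp ranked 42 of 612, against a median of 1893.5 bp (quartiles 1371.8 and 2901 bp). The authors' position, 4276992, lay 3493 bp from the lower edge and 1253 bp from the upper edge. RAP2.6L is the next gene on the lower-coordinate side of AT5G13340, so the longer arm of the peak points towards RAP2.6L. Whether the peak reached RAP2.6L was not analysed, for the same reason as at ERF114.

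This peak, too, had no other peak with its midpoint within 100 kb. The nearest listed peaks were 162809 bp away on the higher side and 337879 bp on the lower side. On the lower side the nearest gene with a peak was CLT3 (AT5G12170), a chloroquine-resistance-transporter-like transporter, 101 steps from RAP2.6L. The CLT3 peak was labelled 3' UTR and scored 128.82, rank 124. On the other flank of RAP2.6L, the adjacent gene is PBS3 (AT5G13320), an enzyme of salicylic acid synthesis, and it had no peak. Of the 20 genes nearest to RAP2.6L in the window drawn, AT5G13340 was the 1 gene with a peak, and the same count of 1 was found at ERF114.

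ERF115 itself lay in a long stretch of chromosome 5 without listed peaks. The nearest gene with a peak was WRKY26 (AT5G07100), a WRKY transcription factor, 33 steps away on the lower side. The WRKY26 peak, at 2203492 to 2204656, was strong, with a score of 287.33, rank 12, and the label intergenic 5'. On the higher side the nearest was TGA4 (AT5G10030), a bZIP factor known in nitrate and defence responses, 294 steps away, at 3139913 to 3141815. The TGA4 peak scored 71.49, rank 357, and bears the mark TP that 22 peaks carry in the authors' deposited table and that the table does not explain. Between these flanking peaks 935.3 kb and 326 genes held no listed peak. Both genes next to ERF115, the copine gene BON2 (AT5G07300) and a tRNA gene, were without a peak.

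RAP2.6 on chromosome 1 was the most remote of the 4. Its nearest gene with a peak was AT1G44510, 151 steps away on the higher side, with a 5' UTR peak at 16856573 to 16858355. That peak scored 55.98, rank 527. On the lower side the nearest was AT1G39030, 250 steps away, with an intergenic 5' peak at 14589723 to 14591390 and a score of 74.63, rank 338. The stretch between them measured 2265.2 kb, the 4th longest of the 607 stretches between neighbouring peaks, and held 400 genes. How well reads can be mapped in this stretch was not analysed here. Of the 20 genes around RAP2.6, 9 encoded proteins, against 16 around ERF115, 18 around RAP2.6L and 19 around ERF114. With protein-coding genes alone in the order, RAP2.6 was 70 steps from a gene with a peak and ERF115 was 24 steps away.

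**Figure D2:**
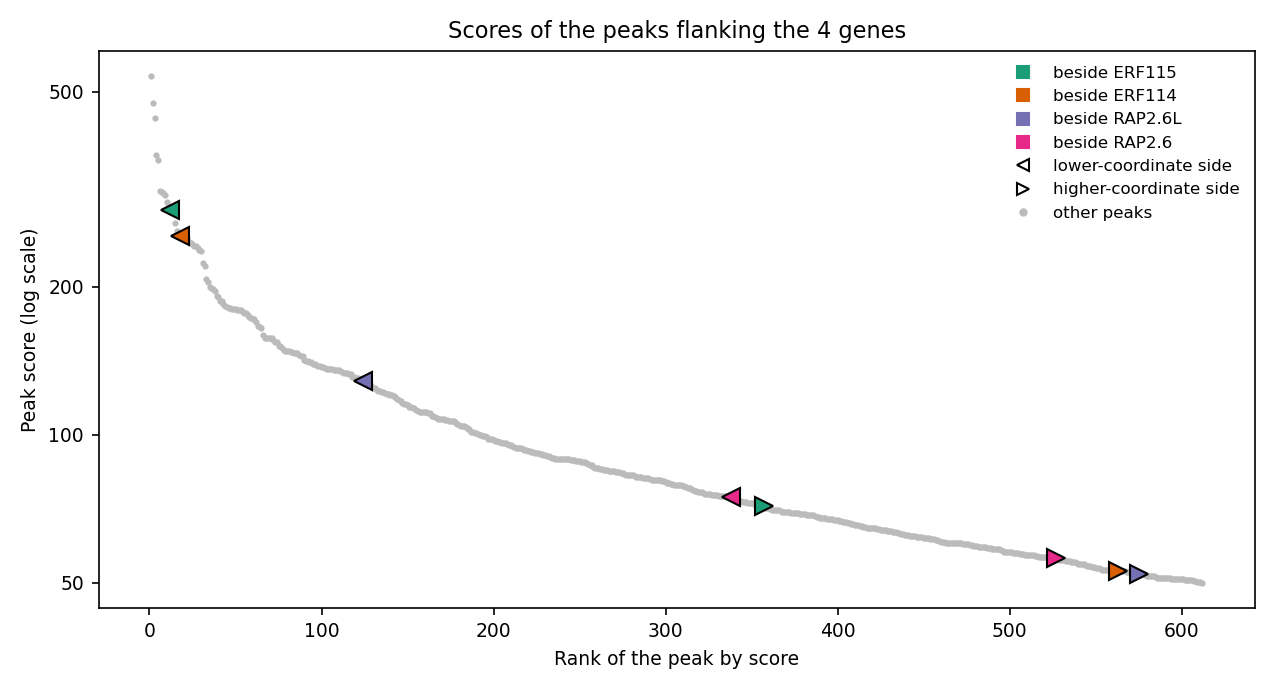
All 612 peaks by rank (horizontal axis) and score (vertical axis, log scale), with the 8 peaks that flank the 4 genes marked by gene and side. The peaks at WRKY26 (287.33, beside ERF115) and AT5G61880 (254.42, beside ERF114) are near the top, and those at GTR2 (52.8) and AT5G13340 (52.04) near the bottom.

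The 8 flanking peaks had no common strength. At each of the 4 genes the peak on the lower-coordinate side had the higher score, with the smallest difference at RAP2.6, where 74.63 faced 55.98. Their labels were intergenic 5' for 4 peaks, 3' UTR for 2, and 5' UTR and intergenic 3' for 1 each. The peaks next to that of AT5G61880 in score belonged to AT3G24120 (270.26), AT5G03870 (260.63) and AT3G60480 (255.83) above it, and to AT5G49700 (253.8), AT3G19870 (252.0) and AT2G41800 (251.83) below it. Those next to that of AT5G13340 belonged to OVA5 (52.4), AT2G44304 (52.38) and AT5G40490 (52.16) above it. Below it they belonged to the prohibitin gene PHB2 (51.96), to TOE3 (51.95), an AP2-type repressor of flowering, and to LGO (51.94), a cell cycle inhibitor.

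**Figure D3:**
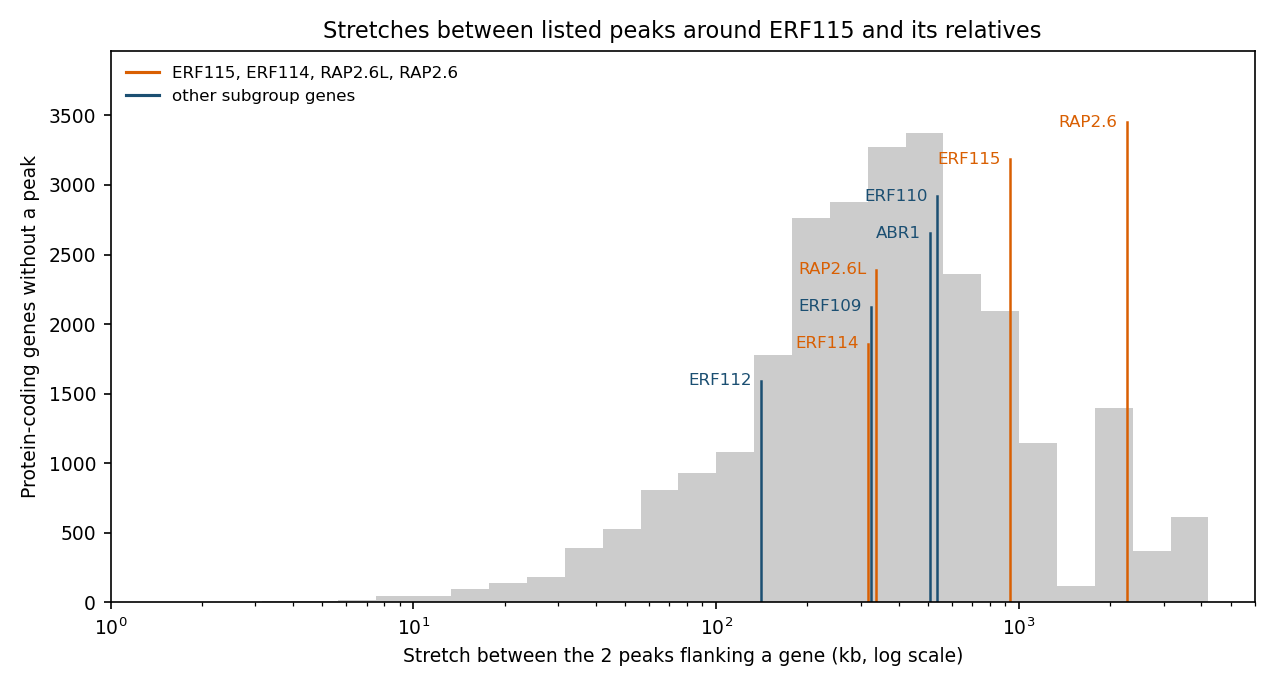
Length in kb (log scale) of the stretch between the flanking peaks for the 26464 protein-coding genes that lie between 2 peaks and have none of their own (grey bars, number of genes). Vertical lines mark the 4 genes and the other subgroup genes; their heights carry no value. RAP2.6 at 2265.2 kb and ERF115 at 935.3 kb lie to the right, and ERF114 at 317.7 kb and RAP2.6L at 337.9 kb near the middle.

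Set against other genes without a peak, the stretches around ERF114 and RAP2.6L were ordinary in length. The stretch measured 317.7 kb at ERF114 and 337.9 kb at RAP2.6L, near the median of 355 kb (quartiles 187 and 702 kb) over 26464 genes. Being next to a gene with a peak, both genes were by definition at the very end of their stretch in gene order. ERF115 lay in a longer one: 15.6% of genes lay in a stretch at least as long. For RAP2.6 this share was 4.13%.

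ERF114 and ERF115 shared gene neighbours that the other relatives did not have by name. Within 10 genes of ERF115 lie BON2 at 1 step, ML4 (MEI2-like 4) at 2 steps on the same side, and APC3 at 2 steps on the other side. Within 10 genes of ERF114 lie BON1 at 2 steps and ML1 at 7 steps on one side, and APC1 at 8 steps on the other. BON1 and BON2 encode copines, calcium-dependent membrane-binding proteins. APC1 and APC3 are ATP/phosphate carriers in the gene table and are not subunits of the APC/C. The order of the 3 names is reversed between the genes: the BON and ML genes lie on the lower-coordinate side of ERF115 and on the higher-coordinate side of ERF114. Of the 28 pairs among the 8 subgroup genes, ERF114 and ERF115 were the pair with shared name stems in these windows. None of the 6 shared neighbours had a peak. AT5G61880, whose peak is described above, lies between ERF114 and APC1, whereas a tRNA gene alone lies between ERF115 and APC3.

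The other 4 genes of the subgroup gave no further assigned or adjacent peak, which leaves 2 of 8 for the subgroup. Among all protein-coding genes 5.28% had a peak of their own or at an adjacent gene. The 2 are ERF114 and RAP2.6L, whose adjacent peaks were known when the genes were chosen, so this count is no test. With peaks scoring at least 100 it fell to 1. Of the other 4 genes, ERF112 (AT2G33710) came closest, with 13.9% of all protein-coding genes as near to a peak or nearer. It lay 4 steps from AT2G33690, whose intergenic 3' peak at chromosome 2, 14252438 to 14253808, scored 312.65, rank 7. On its other side the nearest peak was 56 steps away, at AT2G34080, with a score of 63.11. ABR1 (AT5G64750), a repressor of abscisic acid responses, was 18 steps from AT5G64650, whose intergenic 5' peak scored 140.87, rank 93. The peak that bracketed ABR1 on the higher side, 158 steps away, was that of PSK5. ERF109 (AT4G34410, RRTF1), a regulator known in jasmonate-induced lateral root formation, was 31 steps from AT4G34180, whose peak scored 60.65. ERF110 (AT5G50080) was 47 steps from AT5G49700, whose intergenic 3' peak of 6556 bp scored 253.8, rank 19. The median distance was 24.5 steps over the 8 genes and 25 over all protein-coding genes.

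**Figure D4:**
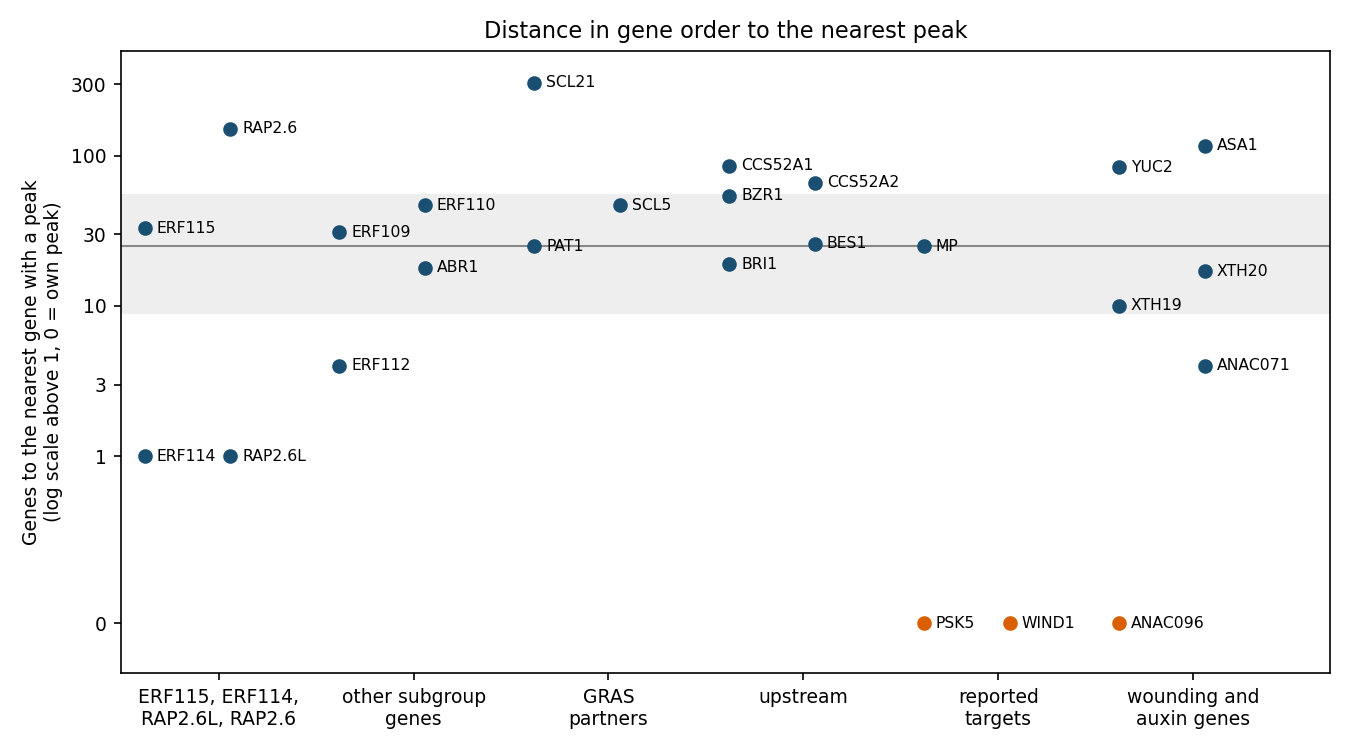
Distance in gene order (vertical axis, log scale above 1) from each gene to the nearest gene with a peak, by list; 0 marks a gene with a peak of its own. The grey band and line show the quartiles (9 and 55) and the median (25) over all protein-coding genes. PSK5, WIND1 and ANAC096 are at 0, ERF114 and RAP2.6L at 1.

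Among 17 genes tied to ERF115 and its relatives, 3 had a peak of their own, or 17.6% against 2.06% of all protein-coding genes. These genes were chosen with earlier results of these data known, so the count describes them and is no test. WIND1, 1 of the 3, is counted again below among the other AP2/ERF genes. Of the 3 reported target genes, PSK5 and WIND1 had one. PSK5 (AT5G65870) makes a precursor of the peptide hormone phytosulfokine and had an intergenic 5' peak of 59.13, rank 483. PSK5 was singled out by the study on these same cells, so its peak is not independent evidence. WIND1 (AT1G78080, also called RAP2.4), an AP2/ERF factor of wound-induced dedifferentiation, had an intergenic 5' peak at chromosome 1, 29362227 to 29363647, with a score of 139.04, rank 97. A second, stronger peak lay 68 bp from it, at 29358902 to 29362158. It was assigned to AT1G78070 with the label intergenic 3' and scored 181.56, rank 46. The third target, MP (AT1G19850), an auxin response factor, was 25 steps from a gene with a peak.

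The 6 wounding and auxin genes included 1 with a peak, the NAC factor gene ANAC096 (AT5G46590), which acts beside ANAC071 in wound-induced cambium formation. Its intergenic 5' peak at chromosome 5, 18902003 to 18905943, scored 135.66. As at WIND1, a second peak lay close by, 147 bp away, at AT5G46580, with the label intergenic 5' and a score of 75.75. ANAC071 (AT4G17980) was 4 steps from AT4G17950, whose peak scored 98.25. The cell wall genes XTH19 and XTH20, which act downstream of ANAC071, were 10 and 17 steps from a peak, and the auxin synthesis genes YUC2 and ASA1, targets of ERF109, were 84 and 117 steps away.

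No peak was assigned to the 3 GRAS proteins that partner ERF115, or to the 5 genes upstream of it, and none lay at an adjacent gene. PAT1 was 25 steps, SCL5 was 47 and SCL21 was 305 steps from a gene with a peak. Among the upstream genes, the brassinosteroid receptor gene BRI1 was 19 steps away, and the brassinosteroid factors BES1 and BZR1 were 26 and 54 steps away. CCS52A2 and CCS52A1, activators of the APC/C, were 66 and 86 steps away. SCL21 was farther from a peak than 98.7% of all protein-coding genes, and CCS52A1 farther than 86.2%. On chromosome 2 alone, 92.7% of protein-coding genes were as near to a peak as SCL21 or nearer.

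Other AP2/ERF genes included some with a peak at the gene itself. None of the 8 of the ERF115 subgroup had one, but 8 genes are few and the difference was not tested. Of 61 other AP2/ERF genes found by name, 11 had a peak of their own (18%, against 2.06% of all protein-coding genes), and 6 more had one at an adjacent gene (9.84%, against 3.23%). The count of 11 fell to 3 with peaks scoring at least 100 and to 4 with the 306 peaks of highest score, where 0.656% and 1.04% of all protein-coding genes had a peak. The names searched were of ERF, DREB and related kinds, so AP2-type genes such as TOE3, which has a peak, are not counted. Family members without such a name are missed too, and the search did not find ERF114 itself. The list is therefore not the whole family. The 11 were ERF1, ERF-1, ERF5, ERF6, ERF10, ERF12, AT5G51190 (ERF105), WIND1, RAP2.9, CEJ1 and CBF1. Over all 61 genes the median distance to a gene with a peak was 8 steps. The 4 genes described here were split, with ERF114 and RAP2.6L at 1 step, ERF115 at 33 and RAP2.6 at 151. In 2 of those 6 cases, ERF11 beside ERF12 and TDR1 beside ERF1, the adjacent gene with the peak was itself an AP2/ERF gene. In the other 4 it was not, as at ERF114 and RAP2.6L. These were ERF8 beside AT1G53180 (154.26), CRF10 beside XYL1 (74.27), ERF2 beside AT5G47225 (138.02) and CRF3 beside PDV1 (51.48). The peak beside ERF114, with 254.42, scored above each peak at or beside these 61 genes, which ran from 50.74 at CBF1 to 154.26. That peak was known when ERF114 was chosen, so this order describes it and is no test.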

How the data were processed

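ERF115-HBH and mock chromatin had 1 library each. Which library code given with the peaks was the control is not stated in the sources used. Per the submitters' processing notes, the genome build was TAIR10 and the tools named were MACS 1.4.2, Picard, BWA 0.5.9, CASAVA 1.8.2 and SAMtools 0.1.18. Parameters, filters and read depth were not given there, and no values of the mock were analysed here, so a missing peak cannot be told from low depth. The authors deposited the peaks as a list and again with a locus and a location label for each. The peak score the authors deposited is 10 times the negative log10 of the MACS p-value. Their Z score per peak rescales that score within the list and was not used further. The score ranks peaks within this list only.

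The RefSeq gene table (assembly TAIR10.1) held 600 of the 608 assigned loci and all 25 listed genes. It served for names and gene order. Its gene starts set that order, but its coordinates were not compared with peak positions because its build has another name. Distances between peaks come from peak coordinates, written 1-based. The other AP2/ERF genes were found by name patterns in the table, which misses unnamed family members and AP2-type genes outside the patterns, and the subgroup's genes were left out of that list. The genes, lists and the naming rule (list genes, loci of their flanking peaks, family members with a peak and the 3 peaks next in score on either side) were chosen with earlier results of these data known. Python 3.11.15, pandas 2.3.3, numpy 2.4.6 and matplotlib 3.10.9 were used, and the counting of steps was tested on simulated gene orders.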

Additional observations from a re-analysis of the deposited data

How the results depend on the processing

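No paired analysis was possible because there was 1 library per group, so no replicate could be left out either. The number of the 4 genes with a peak of their own stayed at 0 among the 192 peaks scoring at least 100 and among the 306 peaks with the highest scores. The 2 genes with a peak at an adjacent gene became 1 under each of these thresholds, since the RAP2.6L neighbour scores 52.04. The count for the subgroup likewise went from 2 to 1. Both counts stayed at 2 with protein-coding genes alone in the order and with 2 genes on either side. Of the 11 other AP2/ERF genes with a peak, 3 were left at scores of at least 100 and 4 among the 306 peaks, both chosen after seeing the data. Measuring stretches between peak midpoints or the authors' positions moved those of the 4 genes by less than 1.5 times. Not run, for lack of protein, promoter and genome sequence on this build, were the planned protein identities, similarity search, promoter motifs and distances from genes in bases. Unknown depth and a single library limit what a missing peak can show.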
